A study of Mus musculus with 8 samples.

Results

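The genes examined were the 9 mouse genes that carry out or drive antigen presentation on MHC class II molecules and that are commonly read as the class II program of a tissue. They were taken by name from the table of normalized counts: *H2-Aa*, *H2-Ab1*, *H2-Eb1*, *H2-DMa*, *H2-DMb1*, *H2-Oa*, *H2-Ob*, *Cd74* and *Ciita*. All 9 were among the 26008 genes of the table, and all 9 were among the 19127 genes tested, that had 10 or more normalized counts on average. A normalized count is the number of reads assigned to a gene divided by a size factor of the library. The colon of 8 hematopoietic chimeras was sequenced, with 1 library per mouse. The recipients of both groups were wild-type C57BL/6JRj males, lethally irradiated at 7 weeks of age. In 4 of them the marrow came from males lacking the preproenkephalin gene on a B6.129 background (*penk*-/- chimeras), and in the other 4 from wild-type males (*penk*+/+ chimeras). Donors were 9 to 11 weeks old. Chimeras of the whole study were examined 18 to 21 weeks after the graft, and the legend covering the RNA sequencing gives 18 weeks. In *penk*-/- chimeras only cells derived from the grafted marrow could carry the deletion. Class II RNA from the epithelium or from stromal cells of the host thus came from wild-type cells in both groups.

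MHC class II molecules are pairs of an alpha and a beta chain that show peptides from internalised proteins to CD4+ T lymphocytes. They are made mainly by dendritic cells, macrophages and B cells, and intestinal epithelial cells can make them when exposed to interferon gamma. The chains assemble around the invariant chain, which blocks the peptide groove until proteases degrade it. The remnant of the invariant chain is then exchanged for a peptide by H2-DM, which is itself held back by H2-DO, mainly in B cells. The transactivator CIITA binds no DNA on its own and docks on the factors RFX, CREB and NF-Y, which sit on the X and Y boxes of class II promoters.

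The promoters are shown first, since the relation of the genes to *Ciita* is the pattern the data turned on. RefSeq promoter windows on the mouse build GRCm38.p6, each with 250 bases before and 50 bases after the start of transcription, were found for 6 of the 9 genes (7 windows, 2 of them for *H2-DMa*). The motifs searched were CCAAT, the core of the Y box, and CCNNGNAAC, the core of the X box, each on either strand. CCAAT was present in a window of all 6 genes and in 37.4% of the 32851 windows of the table. CCNNGNAAC was present for 4 genes and in 15.1% of all windows, and both motifs within 60 bases for 3 genes and in 2.56%. After the sequences had been seen, the shorter core GNAAC was searched with ATTGG, the reverse complement of CCAAT, 15 to 45 bases further on. This pair was found on the gene's strand in 5 of the 6 genes, and in 2.41% of all windows (4.87% with either strand counted). The 5 stretches are shown because they hold this pair for both chains of H2-DO beside that of 3 genes that followed *Ciita* closely. The longer core CCNNGNAAC was not found in the windows of *H2-Aa* and *H2-Eb1*. Capitals mark GNAAC and ATTGG, and the sequences are read 5′ to 3′ on the strand of the gene.
H2-Aa: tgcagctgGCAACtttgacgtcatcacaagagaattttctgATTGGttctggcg
H2-Eb1: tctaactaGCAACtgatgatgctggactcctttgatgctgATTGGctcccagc
H2-DMb1: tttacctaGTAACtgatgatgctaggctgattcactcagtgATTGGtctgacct
H2-Oa: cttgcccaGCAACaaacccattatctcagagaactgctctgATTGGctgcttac
H2-Ob: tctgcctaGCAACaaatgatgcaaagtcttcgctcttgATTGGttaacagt

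These stretches lie at chr17:34287859-34287912 on the minus strand for *H2-Aa*, and on the plus strand at chr17:34305768-34305820 for *H2-Eb1*, chr17:34153089-34153142 for *H2-DMb1*, chr17:34092295-34092348 for *H2-Oa* and chr17:34238810-34238860 for *H2-Ob*. Counted from the start of transcription, GNAAC began at -81 in *H2-Aa*, -91 in *H2-Eb1*, -94 in *H2-DMb1*, -76 in *H2-Oa* and -87 in *H2-Ob*. The distance from the start of GNAAC to the start of ATTGG was 33 bases in *H2-Aa*, *H2-DMb1* and *H2-Oa*, 32 bases in *H2-Eb1* and 30 bases in *H2-Ob*. The pair was therefore as closely spaced in the promoters of the H2-DO chains as in those of the other 3 genes. The spaced pair was not found in either window of *H2-DMa*. A match describes letters in a window and says nothing on whether a factor is bound in the colon.

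**Figure D1:**
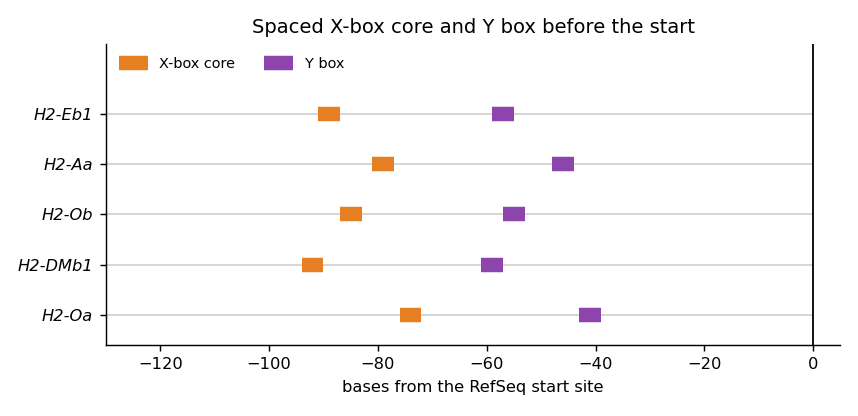
Positions of GNAAC (orange, labelled X-box core) and of ATTGG (purple, labelled Y box) in 5 class II genes. Distances are in bases from the RefSeq start of transcription (vertical line at 0). GNAAC begins between -94 and -76, with ATTGG 30 to 33 bases further on in each gene.

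The 8 libraries held 33.1 M to 50.7 M reads on genes, and every pair differed beyond sampling noise (chi-square per degree of freedom of at least 9.40), so that each mouse was counted as 1 replicate. *Penk* itself ranged from 453 to 616 normalized counts with *penk*-/- marrow and from 473 to 636 with *penk*+/+ marrow (difference of -0.03 on the log2 scale, SE 0.12, limma adjusted *p* = 0.957), so that this RNA of the whole colon did not mark the donors' genotype. The genes *Pbsn*, *Tgm4* and *Msmb*, which code for secretions of male accessory glands, summed to 209863 normalized counts in *penk*-/- replicate 3 and 217825 in *penk*+/+ replicate 4, and to 54.2 to 27526 in the other libraries. Results are therefore also given without these libraries. All 8 epithelial and all 6 smooth muscle genes examined passed the filter on low values, as did 19127 of the 26008 genes of the table. In each library the epithelial genes summed to at least 358348 normalized counts and the smooth muscle genes to at least 142687.

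Levels were compared between genes per kb of the canonical transcript. The classical chains and the invariant chain were the most abundant, with means over the 8 libraries of 4658 normalized counts per kb for *H2-Aa*, 3910 for *Cd74*, 2713 for *H2-Ab1* and 2003 for *H2-Eb1*. The ranges of these 4 genes over the libraries overlapped (2338 to 7758 for *H2-Aa* and 1080 to 2623 for *H2-Eb1*). The chains of H2-DM came next with 330 per kb for *H2-DMa* and 330 for *H2-DMb1*, and their highest library (652 for *H2-DMb1*) was below the lowest library of *H2-Eb1*. *H2-Ob*, the beta chain of H2-DO, had 60.7 per kb (19.7 to 130), a range below the lowest library of *H2-DMa* (174). *Ciita* had 46.9 per kb (20.8 to 71.0), which overlapped *H2-Ob*. The alpha chain gene *H2-Oa* was the least abundant, with 10.9 per kb (3.34 to 24.7), and its top library exceeded the lowest one of *Ciita*. *H2-Oa* rested on 4 to 28 reads per library, against 125 to 559 for *Ciita* and 2119 to 8666 for *H2-Aa*.

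Whether deletion of *penk* in marrow-derived cells changed these genes was examined by comparing the 4 *penk*-/- with the 4 *penk*+/+ chimeras. Of the 9 genes, 8 had a higher and 1 a lower mean log2 level in *penk*-/- chimeras. By limma's moderated test 0 were called at an adjusted *p* below 0.05, as were 0% of all genes tested. With DESeq2, a fit not run here, the paper reports a few genes as differing between these groups at its own thresholds. An unadjusted *p* below 0.05 was obtained for 0 of the 9 genes and for 9.63% of all genes. The groups overlapped for each of the 9 genes, whereas they did not overlap for 5.63% of all genes tested. The median log2 fold change was 0.41 over the 9 genes and 0.01 over all genes. Since the 9 genes varied together between mice, their common direction does not count as 9 observations.

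The classical chains are described first. *H2-Aa* (ENSMUSG00000036594) codes for the alpha chain of the A molecule and is a minus-strand gene of chromosome 17 (34493404 to 34506798, build GRCm39). Replicates 1 to 4 with *penk*-/- marrow had 8751, 4423, 4911 and 5846 normalized counts of it, and those with *penk*+/+ marrow 2637, 7105, 4750 and 3607. The highest library was *penk*-/- replicate 1 and the lowest *penk*+/+ replicate 1, with the other libraries of the groups intermingled. The log2 fold change was 0.45 (SE 0.30, 95% interval -0.23 to 1.12, adjusted *p* = 0.673 with limma). *H2-Ab1*, the beta chain of the same molecule (ENSMUSG00000073421, chromosome 17, 34476663 to 34488393, plus strand), reached 4828, 2841, 3223 and 3571 normalized counts in the *penk*-/- replicates, compared with 1830, 4528, 3179 and 2307 in the *penk*+/+ replicates. It had the same highest and lowest libraries as *H2-Aa*, and a log2 fold change of 0.34 (SE 0.26, 95% interval -0.25 to 0.94, adjusted *p* = 0.719 with limma). *H2-Eb1* (ENSMUSG00000060586, chromosome 17, 34504236 to 34535648, plus strand) codes for the beta chain of the E molecule, whose alpha chain C57BL/6 mice do not make. It had 3990, 3276, 3578 and 3889 normalized counts with *penk*-/- marrow, against 1832, 4451, 3512 and 2662 with *penk*+/+ marrow. Its values were close together in *penk*-/- chimeras (SD 323) and spread in *penk*+/+ chimeras (SD 1125, *n* = 4 each), on both sides of the *penk*-/- values. The log2 fold change was 0.31 (SE 0.23, 95% interval -0.20 to 0.83, adjusted *p* = 0.705 with limma). In the GENCODE M39 annotation *H2-Aa* and *H2-Eb1* share 2563 bases on opposite strands, with overlapping exons, and the strand setting of the authors' counting was not given in the sources used here, so that reads of this stretch may have been credited to either gene.

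**Figure D2:**
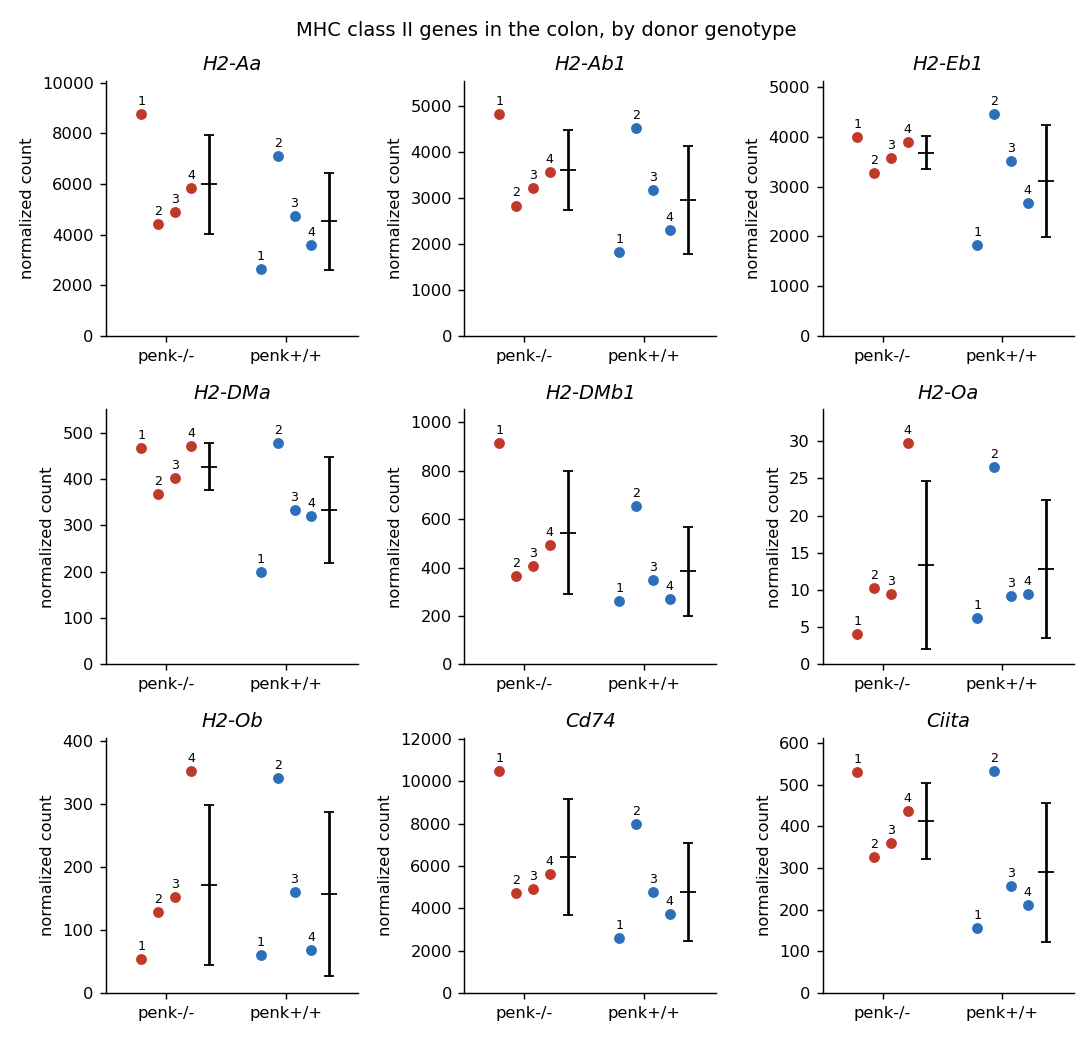
Normalized counts (vertical axes, from 0) of the 9 class II genes in the 4 *penk*-/- (red) and 4 *penk*+/+ (blue) chimeras; each point is a mouse with its replicate number, and the black bars give the mean ± SD. The groups overlap in every panel, *penk*+/+ replicate 1 is lowest in 7 panels, and *penk*-/- replicate 1 is near the top for the chains, *H2-DMb1*, *Cd74* and *Ciita* but lowest for *H2-Oa* and *H2-Ob*.

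The genes of H2-DM, which exchanges the remnant of the invariant chain for a peptide, gave like differences. *H2-DMa* (ENSMUSG00000037649, chromosome 17, 34338515 to 34358958, plus strand) reached 467, 367, 401 and 472 normalized counts in the *penk*-/- replicates, compared with 200, 478, 334 and 321 in the *penk*+/+ replicates. The *penk*+/+ chimeras held both the highest and the lowest library. The log2 fold change was 0.41 (SE 0.23, 95% interval -0.10 to 0.92, adjusted *p* = 0.610 with limma). *H2-DMb1* (ENSMUSG00000079547, chromosome 17, 34372046 to 34379204, plus strand) had 915, 364, 405 and 494 normalized counts with *penk*-/- marrow, against 263, 653, 349 and 270 with *penk*+/+ marrow. Replicate 1 of the *penk*-/- chimeras stood above all other libraries, and the log2 fold change was 0.51 (SE 0.35, adjusted *p* = 0.677 with limma). *H2-DMa* overlaps *Brd2* on the opposite strand over 3231 bases, and *H2-DMb1* has a closely related neighbour, *H2-DMb2*, with which reads may have been shared.

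The genes of H2-DO, the inhibitor of H2-DM, varied most between mice. *H2-Oa* (ENSMUSG00000024334, chromosome 17, 34311314 to 34314328, plus strand) reached 4.04, 10.3, 9.45 and 29.8 normalized counts in the *penk*-/- replicates, compared with 6.22, 26.6, 9.20 and 9.43 in the *penk*+/+ replicates, a 7.39-fold range. *H2-Ob* (ENSMUSG00000041538, chromosome 17, 34457836 to 34473388, plus strand) had 53.5, 129, 152 and 352 normalized counts with *penk*-/- marrow, against 59.7, 341, 160 and 68.6 with *penk*+/+ marrow, a 6.59-fold range. Both genes were highest in *penk*-/- replicate 4 and *penk*+/+ replicate 2 and lowest in replicate 1 of the *penk*-/- chimeras, which had the most *H2-Aa*. *H2-Oa* overlaps *BC051537* on the opposite strand. The log2 fold change was -0.05 for *H2-Oa* (SE 0.58, 95% interval -1.36 to 1.25, adjusted *p* = 0.989 with limma) and 0.18 for *H2-Ob* (SE 0.65, 95% interval -1.27 to 1.63, adjusted *p* = 0.958 with limma). Leaving out single libraries moved *H2-Oa* between -0.52 and 0.35 and *H2-Ob* between -0.27 and 0.67, so that the sign of neither held in every case. The lowest value of both came without *penk*-/- replicate 4, and *H2-Oa* was at 0.35 without *penk*-/- replicate 1 or without *penk*+/+ replicate 2.

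*Cd74*, the invariant chain (ENSMUSG00000024610, chromosome 18, 60936899 to 60945731, plus strand), reached 10480, 4702, 4919 and 5612 normalized counts in the *penk*-/- replicates, compared with 2585, 7970, 4747 and 3752 in the *penk*+/+ replicates. Replicate 1 of the *penk*-/- chimeras stood apart from the other 3 of its group. The log2 fold change was 0.47 (SE 0.35, 95% interval -0.31 to 1.25, adjusted *p* = 0.705 with limma). *Ciita*, the transactivator (ENSMUSG00000022504, chromosome 16, 10297923 to 10347694, plus strand), had 530, 326, 359 and 436 normalized counts with *penk*-/- marrow, against 156, 532, 257 and 211 with *penk*+/+ marrow. The 4 *penk*-/- values were above those of 3 *penk*+/+ chimeras and below that of the other, replicate 2. With a log2 fold change of 0.65 (SE 0.33, 95% interval -0.10 to 1.39), *Ciita* had the largest difference of the 9 genes (adjusted *p* = 0.578 with limma; exact permutation test over the 70 assignments, two-sided, *p* = 0.171). *Ciita* overlaps *Dexi* on the opposite strand.

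**Figure D3:**
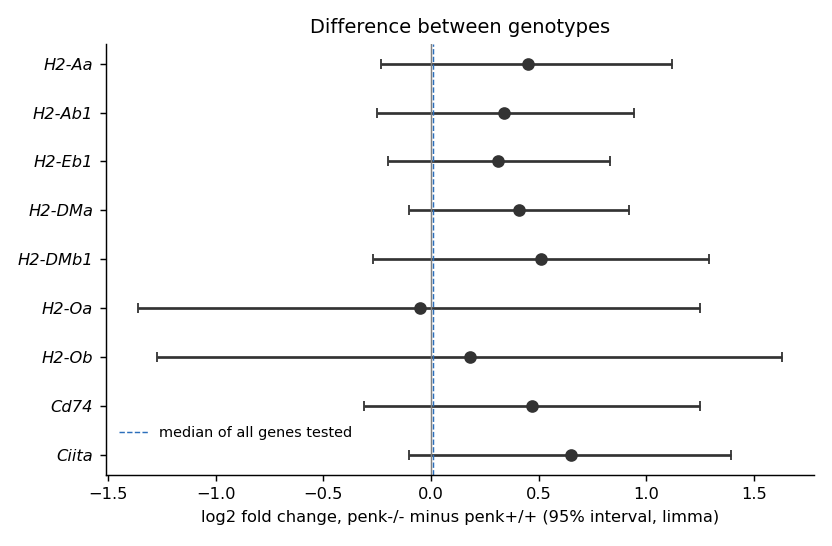
Log2 fold change (*penk*-/- minus *penk*+/+, on the log2(normalized count + 1) scale) of the 9 class II genes, with points for the limma estimate and bars for its 95% interval; the dashed line is the median of all genes tested (0.01). Every interval includes 0, and those of *H2-Oa* and *H2-Ob* are the widest.

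These values moved with single libraries of both genotypes. Without *penk*+/+ replicate 1, which was lowest for 7 of the 9 genes, the log2 fold change was 0.40 for *Ciita*, 0.22 for *Cd74* and 0.36 for *H2-DMb1*. Without *penk*-/- replicate 1, it was 0.52, 0.21 and 0.23 for these genes. Without *penk*+/+ replicate 2, it was 0.99, 0.76 and 0.80, and 7 of the 9 genes had an unadjusted *p* below 0.05 with limma, as had 7.51% of all genes, with 0 called after adjustment over all genes (adjusted *p* from 0.594 to 0.658 for these 7 genes). Marker sums stood beside these values as follows. The 7 B cell genes summed to 250 to 1830 normalized counts with *penk*-/- marrow, against 206 to 1735 with *penk*+/+ marrow, the 8 dendritic cell genes to 789 to 1076 and 667 to 1186, and the 8 macrophage genes to 7673 to 9778 and 6854 to 9668. All 8 epithelial genes were lower on average in *penk*-/- chimeras, with 0 called (sums of 358348 to 485289 and 445965 to 519965). None of these marker genes was at 0 in any library, and their part in the class II differences was not tested. In whole colon, fewer cells of a type and less RNA per cell cannot be told apart.

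The other genes of the pathway were taken from fixed lists, and 0 of them were called between the genotypes. Among the 7 genes of the class II promoter factors (*Rfx5*, *Rfxap*, *Rfxank*, *Nfya*, *Nfyb*, *Nfyc* and *Creb1*), 3 were higher and 4 lower, with a median log2 fold change of -0.06. *Rfx5*, the DNA-binding subunit of RFX, averaged 388 ± 40.4 normalized counts with *penk*-/- marrow, against 424 ± 40.0 with *penk*+/+ marrow (SD, *n* = 4 each). Of the 8 genes examined that lead from interferon gamma to *Ciita* or otherwise govern it, 7 were lower and 1 higher (median -0.08). Among them *Ifngr1*, a chain of the interferon gamma receptor, averaged 15012 ± 2324 and 19490 ± 1945 normalized counts (SD, *n* = 4 each). Its log2 fold change was -0.38 with an unadjusted limma *p* of 0.00783 and an adjusted *p* of 0.385. *Ifngr1* was the only 1 of these 8 genes with an unadjusted *p* below 0.05, as had 9.63% of all genes tested. *Irf1*, a transcription factor induced by interferon gamma, had 4907 ± 1139 and 5938 ± 723 normalized counts (SD, *n* = 4 each). The 7 genes of antigen and invariant chain processing had a median of -0.00, and *Ctss*, the protease that trims the invariant chain, had 18088 ± 3132 and 20467 ± 2404 normalized counts (SD, *n* = 4 each). The 10 genes of class I presentation had a median of -0.12, with 3 higher and 7 lower. *Nlrc5*, the class I counterpart of *Ciita*, had 212 ± 43.4 and 199 ± 58.0 normalized counts (SD, *n* = 4 each).

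Whether the class II genes moved with their transactivator was examined over the 8 libraries, by correlating log2(normalized count + 1) of each gene with that of *Ciita*. Of the other 8 class II genes, 6 rose with *Ciita* at a permutation *p* below 0.05, against 1.90% of all genes tested. These were the 3 classical chains, both chains of H2-DM and *Cd74*. The Pearson coefficient was 0.958 for *H2-Aa* (permutation over all pairings, *p* = 1.98e-04), 0.959 for *H2-Ab1* (permutation *p* = 2.48e-04) and 0.928 for *H2-Eb1* (permutation *p* = 2.73e-04). It was 0.954 for *H2-DMa* (permutation *p* = 7.44e-05), 0.919 for *H2-DMb1* (permutation *p* = 0.00124) and 0.938 for *Cd74* (permutation *p* = 3.97e-04). Spearman's rho was 0.952 to 0.976 for these 6 genes (permutation *p* = 3.97e-04 to 0.00114). After adjustment over the 19126 other genes the *p*-values were 0.474 to 0.984, with 0 genes of the whole table below 0.05. The smallest *p* that 8 libraries can give is 2.48e-05, and a gene alone at that value has an adjusted *p* of 0.474.

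The relation was as close within the genotypes. With each value centred on the mean of its genotype, *r* was between 0.903 and 0.966 for the 6 genes. Without *penk*+/+ replicates 1 and 4, the libraries farthest from the median of *Ciita*, *r* was 0.837 to 0.965. Without the libraries with the most *Pbsn*, it was 0.916 to 0.975. All points rest on the size factors of the table, and with CPM or TMM scaling 6 genes were again obtained.

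*H2-Oa* and *H2-Ob* gave lower coefficients with *Ciita*, 0.379 (permutation *p* = 0.355; rho 0.405, permutation *p* = 0.327) and 0.506 (permutation *p* = 0.202; rho 0.381, permutation *p* = 0.360). A single library decided this. Replicate 1 of the *penk*-/- chimeras combined 530 normalized counts of *Ciita* with the lowest values of both H2-DO chains, and without it *r* was 0.855 for *H2-Oa* and 0.931 for *H2-Ob* (permutation *p* = 0.0157 and 0.00536). Without *penk*+/+ replicates 1 and 4, on the other hand, *r* was 0.186 and 0.029. That the coefficients of the H2-DO chains differ from those of the other genes was not tested.

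**Figure D4:**
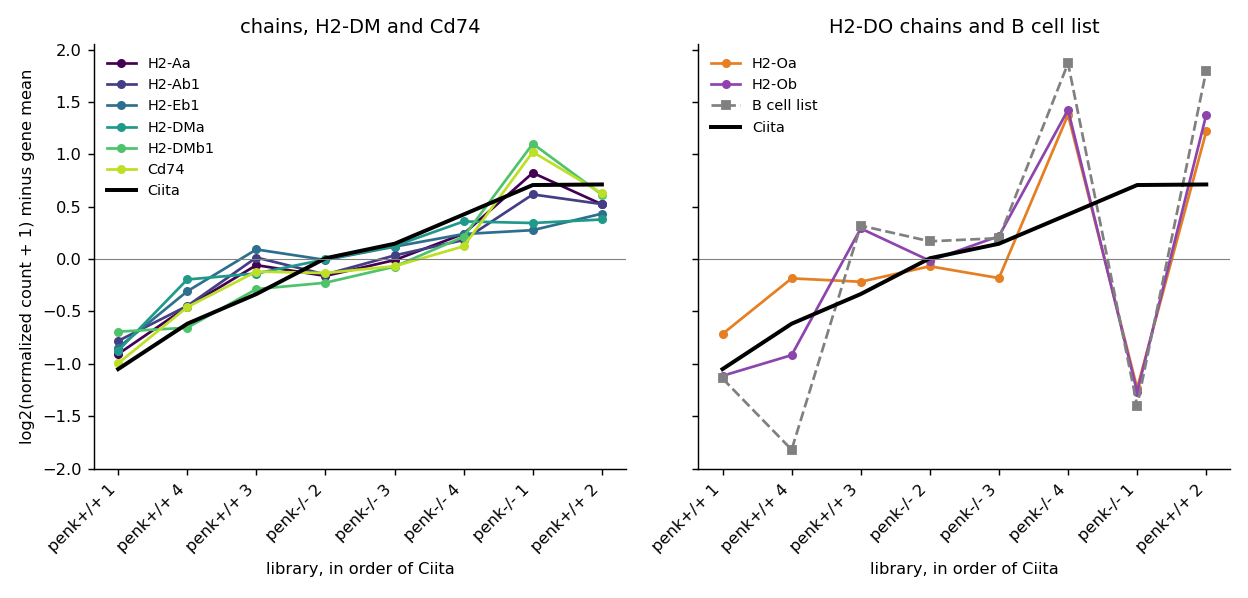
Log2(normalized count + 1) minus the gene's mean over the 8 libraries (vertical axis), with the libraries ordered by *Ciita* (black line). Left, the 6 genes that rose with *Ciita*; right, *H2-Oa*, *H2-Ob* and the mean of the 7 B cell genes (dashed), which fall together in *penk*-/- replicate 1, where *Ciita* is high.

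With *Cd74* in place of *Ciita*, 6 of the other 8 class II genes rose at a permutation *p* below 0.05 against 1.23% of all genes tested. The coefficient was 0.992 for *H2-Aa* (permutation *p* = 2.48e-05, the smallest possible), 0.978 for *H2-Ab1* (permutation *p* = 4.96e-05) and 0.966 for *H2-DMb1* (permutation *p* = 4.96e-05). By rank, the 8 mice were in the same order for the invariant chain and for both chains of the A molecule. The coefficient was 0.938 for *Ciita*, 0.881 for *H2-DMa* and 0.879 for *H2-Eb1* (permutation *p* = 3.97e-04 to 0.00332; rho 0.905 to 0.976). The smallest *p* adjusted over all genes was 0.316. Centred on the genotype, *r* was 0.854 to 0.991 for the 6 genes, and without replicate 1 of either genotype, the libraries farthest from the median of *Cd74*, it was 0.863 to 0.981. For *H2-Oa* and *H2-Ob* it was 0.134 and 0.267 with all libraries (permutation *p* = 0.758 and 0.524), and 0.783 and 0.883 without replicate 1 of either genotype.

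The marker lists were then taken as references, each as the mean of its centred log2 values, a comparison chosen after the values were seen. Both chains of H2-DO rose with the B cell list (*Ms4a1*, *Cd79a*, *Cd79b*, *Pax5*, *Cr2*, *Fcer2a* and *Blk*), as did 4.72% of all genes. The coefficient was 0.978 for *H2-Ob* (permutation *p* = 0.00112; rho 0.929, permutation *p* = 0.00223) and 0.872 for *H2-Oa* (permutation *p* = 0.00747; rho 0.714, permutation *p* = 0.0576). With any 1 library left out it stayed between 0.969 and 0.997 for *H2-Ob* and between 0.813 and 0.979 for *H2-Oa*. Without replicate 4 of either genotype, the libraries farthest from the list's median, it was 0.996 and 0.973. The other 7 class II genes had coefficients of 0.299 to 0.612 with the B cell list (permutation *p* = 0.103 to 0.477). Without replicate 4 of either genotype these were 0.057 to 0.545. Without *penk*-/- replicate 1, however, they were 0.788 to 0.934, so that their low values rest on that library. Adjusted over all genes, no *p* was below 0.05 (smallest 0.555). The B cell sum was 250 in *penk*-/- replicate 1 and 206 in *penk*+/+ replicate 4, and 1830 and 1735 in *penk*-/- replicate 4 and *penk*+/+ replicate 2.

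A pair of further class II region genes, the H2-DM chain *H2-DMb2* and the E-type beta chain *H2-Eb2*, stood beside the H2-DO chains. Together they summed to 74.7, 183, 185 and 432 normalized counts with *penk*-/- marrow, against 57.2, 363, 212 and 131 with *penk*+/+ marrow. They had coefficients of 0.864 and 0.912 with the B cell list (permutation *p* = 0.00724 and 0.00469; rho 0.881 and 0.929) and of 0.518 and 0.456 with *Ciita* (permutation *p* = 0.190 and 0.253). As for the H2-DO chains, the coefficients with *Ciita* were higher without *penk*-/- replicate 1, at 0.901 and 0.904, and lower without *penk*+/+ replicates 1 and 4, at -0.112 and 0.048.

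**Figure D5:**
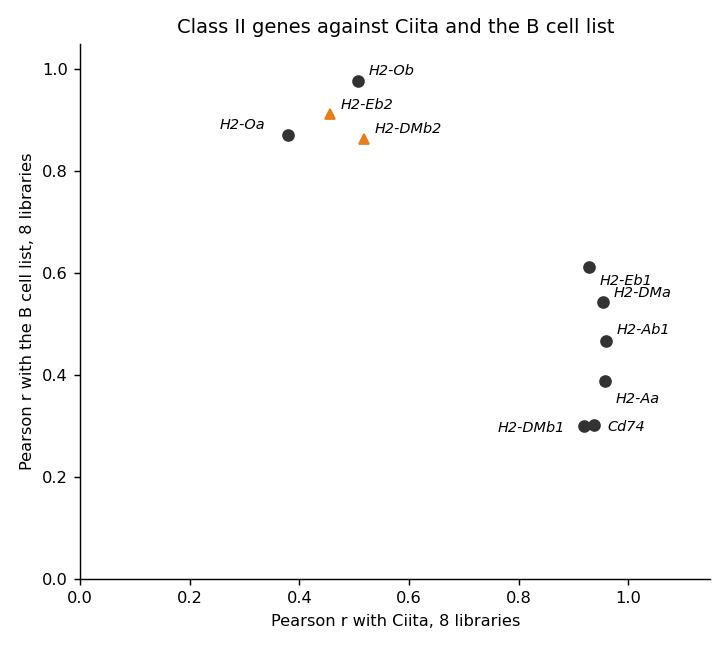
Pearson coefficient over the 8 libraries with *Ciita* (horizontal axis) and with the mean of the 7 B cell genes (vertical axis); circles are the class II genes examined and triangles *H2-Eb2* and *H2-DMb2*. The chains, H2-DM and *Cd74* sit at 0.919 to 0.959 on the *Ciita* axis and at or below 0.612 on the B cell axis, and *H2-Oa* and *H2-Ob* at 0.872 and 0.978 on the B cell axis.

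With the dendritic cell list as reference, 4 of the 9 class II genes rose (*H2-Ob*, *H2-Eb1*, *H2-Oa* and *H2-DMa*), against 9.35% of all genes, with coefficients of 0.324 to 0.908. For the 7 genes other than the H2-DO chains, replicate 1 of each genotype decided these values, with coefficients of 0.861 to 0.980 without that of the *penk*-/- chimeras and of -0.007 to 0.571 without that of the *penk*+/+ chimeras (0.315 for *H2-DMa*). With the macrophage list, 2 rose (*H2-Ob* and *H2-Eb1*), against 11.6% of all genes. The coefficient of *H2-Eb1* was 0.747, but 0.935 and 0.286 without the same libraries, and those of the 7 genes were 0.692 to 0.935 and -0.307 to 0.286. *H2-Ob* stayed between 0.761 and 0.819 with any 1 library left out. With the epithelial list 0 rose, against 12.6%, with coefficients between -0.371 and 0.047, and between -0.160 and 0.402 without *penk*+/+ replicate 1. None of these relations passed adjustment over all genes for a class II gene. The lists were not independent of each other, and 6 of the 8 dendritic cell genes rose with the B cell list.

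Outside the class II genes, the relation to *Ciita* was looked for in the pathway lists. Of the 7 promoter factors and of the 8 genes that govern *Ciita*, 0 rose with it. Of the 7 processing genes and of the 10 class I genes, 0 rose with it either. The median coefficients of these lists were -0.12, -0.18, -0.17 and 0.14. Of all genes tested 1.90% rose with *Ciita*, so that a count of 0 does not set lists of this size apart. Without *penk*+/+ replicates 1 and 4, the class I coefficients ran from -0.074 for *Nlrc5* to 0.952 for *Tap2*, with 0.822 for *Tap1*. Those of the other lists then ran from -0.567 for *Spi1* to 0.617 for *Jak2*. These values were not tested. *Irf1* had a coefficient of -0.245 (permutation *p* = 0.569), and of 0.371 without *penk*+/+ replicates 1 and 4. Among the genes of class II turnover, *Marchf1*, which marks class II chains for degradation, had 0.634 with *Ciita* (permutation *p* = 0.0955; -0.175 without *penk*+/+ replicates 1 and 4) and 0.907 with the B cell list (permutation *p* = 0.00377; rho 0.833, permutation *p* = 0.0154).

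The 5 genes whose profile was most like that of *Ciita* over the 8 libraries, class II genes aside, were *Gbp8* (*r* = 0.978), *Lin7a* (0.961), *Hira* (0.957), *Ccdc152* (0.952) and *Stx11* (0.947). *Gbp8*, a guanylate-binding protein, had 124 to 197 normalized counts over the libraries. The 5 genes most like *Cd74* were *Gm50205* (0.975), *Ifi47* (0.953), *Hes6* (0.943), *Morn2* (0.933) and *Gtf2h3* (0.929). *Ifi47*, an interferon-inducible GTPase, had 167 to 603 normalized counts. By the mean coefficient over the 9 class II genes, *Gbp8* (0.844), *Stx11* (0.830), *Lax1* (0.823), *Lin7a* (0.823) and *Gm57150* (0.815) came first. These are descriptions of 8 libraries, since the genes were picked as the extremes of the whole table.

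Ratios within a library do not depend on its depth. The log2 ratio of *H2-Aa* to *H2-Ab1*, per kb, was 0.63 to 0.96 in the 8 libraries and that of *Cd74* to *H2-Ab1* 0.26 to 0.88, so that *H2-Aa* and *Cd74* exceeded *H2-Ab1* in every mouse. The ratio of *H2-DMa* to *H2-Aa* ranged over 0.74. By contrast, the ratio of inhibitor to exchange factor ranged over 3.61 for *H2-Ob* to *H2-DMb1* and over 2.87 for *H2-Oa* to *H2-DMa*. *H2-Oa* rested on 4 to 28 reads per library, so that counting noise adds to its spread. Without *penk*-/- replicate 1, the lowest for both, these ratios were -3.09 to -1.44 and -5.48 to -4.05. The log2 ratio of *H2-Ob* to *H2-DMb1* was -5.04, -2.44, -2.36 and -1.44 with *penk*-/- marrow, against -3.09, -1.89, -2.07 and -2.93 with *penk*+/+ marrow. The lowest ratio was again that of *penk*-/- replicate 1, and the groups overlapped. Between the genotypes the 5 ratios differed by -0.49 (*H2-Oa* to *H2-DMa*), -0.33 (*H2-Ob* to *H2-DMb1*), 0.13 (*Cd74* to *H2-Ab1*), 0.10 (*H2-Aa* to *H2-Ab1*) and -0.03 (*H2-DMa* to *H2-Aa*). None of these differences passed the exact permutation test (two-sided *p* = 0.171 to 0.886, adjusted over the 5 ratios 0.762 to 0.886), which can give no *p* below 0.0286.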

How the data were processed

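RNA-seq was performed on colon biopsies of 8 chimeras. The authors prepared stranded poly-A libraries and, per the labels, used FastQC, STAR 2.7.8a on GRCm39 and DESeq2 1.30.0. The authors deposited a signal that is neither raw nor logged, read counts divided by a size factor per library. All values (100%) came out as whole reads once divided by the value of 1 read (tolerance 0.1 read). Names, positions and transcript lengths came from GENCODE M39 (25776 identifiers matched) and promoters from RefSeq.

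For the genotypes, limma 3.58.1 was run in R 4.3.3 (eBayes with trend) on log2(value + 1), without covariates, two-sided, with Benjamini-Hochberg adjustment over 19127 genes with a mean of at least 10. This scale understates changes of low genes. Correlations were tested over all 40320 pairings of the libraries and ratios over 70 assignments (Python 3.11.15, numpy 2.4.6, scipy 1.17.1). The limma and correlation tests were checked on simulated data, and the ratio test was not. Fold changes are *penk*-/- against *penk*+/+.

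The genes named were the 9 class II genes, the list genes and the 5 genes most like *Ciita*, *Cd74* or all 9. These genes and lists were chosen with earlier results of these data known. Some list genes are not reported here and were left out of their lists. The same replicate number designates different mice. Alternatives were other pseudocounts, filters and scalings, no trend, the replicate number as a block, and libraries left out. The paper marks colon RNA sequencing under a single set of its chimeras. Nothing says whether mice or libraries of that set were handled in batches.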

Additional observations from a re-analysis of the deposited data

Results flagged for a closer look

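In 3 of 28 groups of 4 libraries, a library lay farther from the others than Dixon's 95% limit on gap over range allows. About 1 in 20 independent groups would pass that limit. These groups share the same 8 mice and in part the same genes, so the 3 cannot be set against that share. *Cd74* had 10480 normalized counts in *penk*-/- replicate 1 (gap over range 0.842), and the other 3 *penk*-/- chimeras had 4702 to 5612. The log2 ratio of *H2-DMa* to *H2-Aa* was -4.26 in the same library (0.935), against -3.66 to -3.62 in the other 3. *H2-Oa* had 26.6 normalized counts in *penk*+/+ replicate 2 (0.843), against 6.22 to 9.43 in the other *penk*+/+ chimeras.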

How the results depend on the processing

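No class II gene was called between the genotypes under any alternative run, and 6 genes rose with *Ciita* and 6 with *Cd74* in each (6 to 8 with 1 library left out, 8 without *penk*-/- replicate 1). The ratios gave 0 calls in each. Over all genes, 0 were called with limma and 0 with voom on the recovered reads, an alternative added after the data were seen (unadjusted *p* below 0.05 for 1842 and 1863 genes), 1 with the replicate block and 0 to 6 with 1 library left out (6 without *penk*-/- replicate 1). Same-numbered mice did not deviate together (correlations of 0.15, -0.04, -0.32 and -0.16), so the replicate block has no basis in pairing.

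Among the fold changes, the correlations of the 9 genes with *Ciita* and *Cd74*, and the ratios, directions turned as follows. With 1 library left out, the log2 fold change ranged from -0.52 to 0.35 for *H2-Oa* and from -0.27 to 0.67 for *H2-Ob*, the correlation with *Cd74* from -0.123 to 0.821 for *H2-Oa* and from -0.014 to 0.909 for *H2-Ob*. The ratio differences ranged from -0.94 to 0.01 for *H2-Oa* to *H2-DMa*, from -0.79 to 0.41 for *H2-Ob* to *H2-DMb1* and from -0.09 to 0.12 for *H2-DMa* to *H2-Aa*. Without both libraries rich in *Pbsn*, *H2-Ob* was at -0.14. Correlations with marker lists turned without *penk*+/+ replicate 1: the macrophage list gave -0.207 for *H2-Aa*, -0.067 for *H2-Ab1*, -0.262 for *H2-DMb1* and -0.307 for *Cd74*, the dendritic cell list -0.007 for *Cd74*, and the epithelial list up to 0.402. With the latter, *H2-DMb1* was at -0.233 without *penk*-/- replicate 1. Planned edgeR and DESeq2 fits on recovered reads were not run. Depth limits *H2-Oa* most, with 4 to 28 reads.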
